A study of Mus musculus with 12 samples.

Results

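The enzymes that build serine from glucose and pass its carbon to folate were followed in sorted mouse glioma cells, together with Atf4, a transcription factor that switches on several of them, and Asns, another of its targets. The genes were Phgdh, Psat1, Psph, Shmt1, Shmt2, Mthfd1, Mthfd2, Mthfd1l, Atf4 and Asns, 10 of the 19938 genes tested, chosen by name. Each had 1 probe set whose only gene symbol was that gene, and that probe set was used.

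Tumor cells tagged with ZsGreen were sorted from 12 tumor-bearing FVB brains, 6 of the pEGFR-Hi and 6 of the pEGFR-Lo type, and the total RNA of each mouse was measured on 1 Affymetrix Mouse Gene ST array. Both tumor types descended from one parental pool of neural progenitors of the subventricular zone that lacked Ink4a/Arf and carried human EGFRvIII, a truncated, constitutively active form of the EGF receptor. The transduced cells gave a line with more phosphorylated receptor (pEGFR-Hi) and a line with less (pEGFR-Lo), and each was passaged through mouse brains as a tumor before use. Hosts were syngeneic and received 2 µl of a suspension of 200000 cells per µl into the brain. Each group was 1 line, so the p-values below describe the spread among mice and not among lines. Brains were taken at the median survival of each tumor type, which came earlier for pEGFR-Hi, so that line and time since injection cannot be told apart. Brains had been digested with papain, cleared of myelin and red blood cells on Percoll, and sorted without DAPI-positive dead cells.

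Cells make serine from an intermediate of glycolysis in 3 steps, catalysed by Phgdh, Psat1 and Psph. Serine hydroxymethyltransferase then moves a carbon from serine to tetrahydrofolate, giving glycine, and the folate-bound carbon is oxidised, reduced or released as formate by the Mthfd enzymes. Cytosol and mitochondria each hold such a set (Shmt1 and Mthfd1 in the cytosol, Shmt2, Mthfd2 and Mthfd1l in mitochondria), and the carbon goes into purines, thymidylate and methionine. Atf4 is the main effector of the amino acid and integrated stress responses and is controlled largely at translation, so that an array of its mRNA does not report its protein. Serine synthesis is used by proliferating tumor cells, and in the normal brain Phgdh is largely an enzyme of astrocytes and neural progenitors.

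All values are log2 expression after RMA, which gives every array nearly the same distribution, so a change in total RNA per cell is not visible. In bulk samples such as these, fewer cells of a type and less RNA per cell cannot be told apart. Levels of different genes were not ranked, because probe sets differ in their brightness. Array medians lay between 4.81 and 4.88, and the level below which 95% of 1027 olfactory receptor genes lay, 4.10, was taken as background. The correlation over all genes was 0.991 to 0.994 among pEGFR-Hi arrays, 0.985 to 0.994 among pEGFR-Lo arrays and 0.944 to 0.959 between arrays of different groups. The probe set of Cdkn2a, the Ink4a/Arf gene that both lines lack, read 5.26 ± 0.13 in pEGFR-Hi and 5.36 ± 0.14 in pEGFR-Lo (SD, n = 6 each); where its probes lie relative to the deletion was not examined.

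The promoters of the genes are shown for 2 members, the one whose expression differed most and the one whose promoter carried the element that Atf4 binds together with C/EBP proteins. Promoter sequence here is RefSeq on GRCm38.p6, 250 bases before and 50 after the annotated start, read in the direction of transcription. The C/EBP-ATF response element was searched as TGATGNAA on both strands, and a match is in capitals. Asns, asparagine synthetase, holds a match on chromosome 6, minus strand, at chr6:7693160-7693459, whose first base lies at -23 relative to the start. Shmt1 lies on chromosome 11, minus strand, at chr11:60811216-60811515.
Asns: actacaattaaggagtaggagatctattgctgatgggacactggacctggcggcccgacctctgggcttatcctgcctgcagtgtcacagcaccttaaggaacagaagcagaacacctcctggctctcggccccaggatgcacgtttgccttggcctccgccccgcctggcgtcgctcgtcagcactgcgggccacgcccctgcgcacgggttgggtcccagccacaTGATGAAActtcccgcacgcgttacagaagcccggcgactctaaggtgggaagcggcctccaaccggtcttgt
Shmt1: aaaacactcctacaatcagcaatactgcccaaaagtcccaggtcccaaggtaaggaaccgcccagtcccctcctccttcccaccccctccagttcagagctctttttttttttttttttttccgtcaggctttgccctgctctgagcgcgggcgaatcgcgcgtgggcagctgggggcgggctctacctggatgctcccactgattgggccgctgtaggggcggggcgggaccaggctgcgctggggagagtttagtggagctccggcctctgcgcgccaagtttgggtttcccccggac
All 10 genes had an entry, and Psat1 had 2 starts, which gave 11 promoters. The C/EBP-ATF element was found in 1 of these 11, that of Asns, and in 1304 of all 32851 promoters of the same length (3.97%). The Myc-type E-box CACGTG was found in 0 of the 11, against 7.15% of all promoters, and the E2F motif TTTNGCGC in 0 of the 11, against 1.38%. A match in these letters is a description of the window and not a mapped site.

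Of the 10 genes, Shmt1 was higher in pEGFR-Hi cells by more than 3-fold, and the other 9 differed by less than 2-fold. The mitochondrial Shmt2 and Mthfd2 and the cytosolic Mthfd1 passed the significance limit at 1.57-fold, 1.42-fold and 1.32-fold. The serine synthesis enzymes, Mthfd1l, Atf4 and Asns missed it. A gene counted as called when it differed at least 2-fold and its limma p, adjusted over all genes by Benjamini-Hochberg, was under 0.01. By this rule 1 of the 10 was called higher in pEGFR-Hi, against 3.99% of all genes, and 0 were called lower, against 5.06%. At an unadjusted p under 0.05, 7 were higher and 0 lower. The share of all genes at that unadjusted limit was not counted, here or for the lists below. A stricter limit, adjusted p under 0.05 with no fold limit, was passed by 3871 of all 19938 genes as higher and 3314 as lower. SAM called 1 of the 10 higher and 0 lower, against 801 and 1009 of all genes. Without the fold limit, 4 of the 10 were higher at an adjusted p under 0.01. The shares were 14.7% of all genes and 20.9% of the genes above background, where all 10 lay. None was lower at that adjusted p, against 12.9% of all genes. The 4 became 5, with Psat1, without pEGFR-Lo mouse 2 (adjusted p = 0.00904). Psat1 also passed with a second quantile normalization, centring on array medians, dim genes left out, or eBayes with trend and robust, at limma adjusted p from 0.0025 to 0.00962. The 4 became 3, without Mthfd2, when pEGFR-Lo mice 3 and 6 were both left out. The values of the groups did not overlap, with pEGFR-Hi higher, for 4 of the 10, against 12.2% of all genes in that direction. The difference was positive for 10 of 10, against 51.8% of all genes and 53.0% of those above background, and its median was 0.34 over the 10 and 0.01 over all genes.

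**Figure D1:**
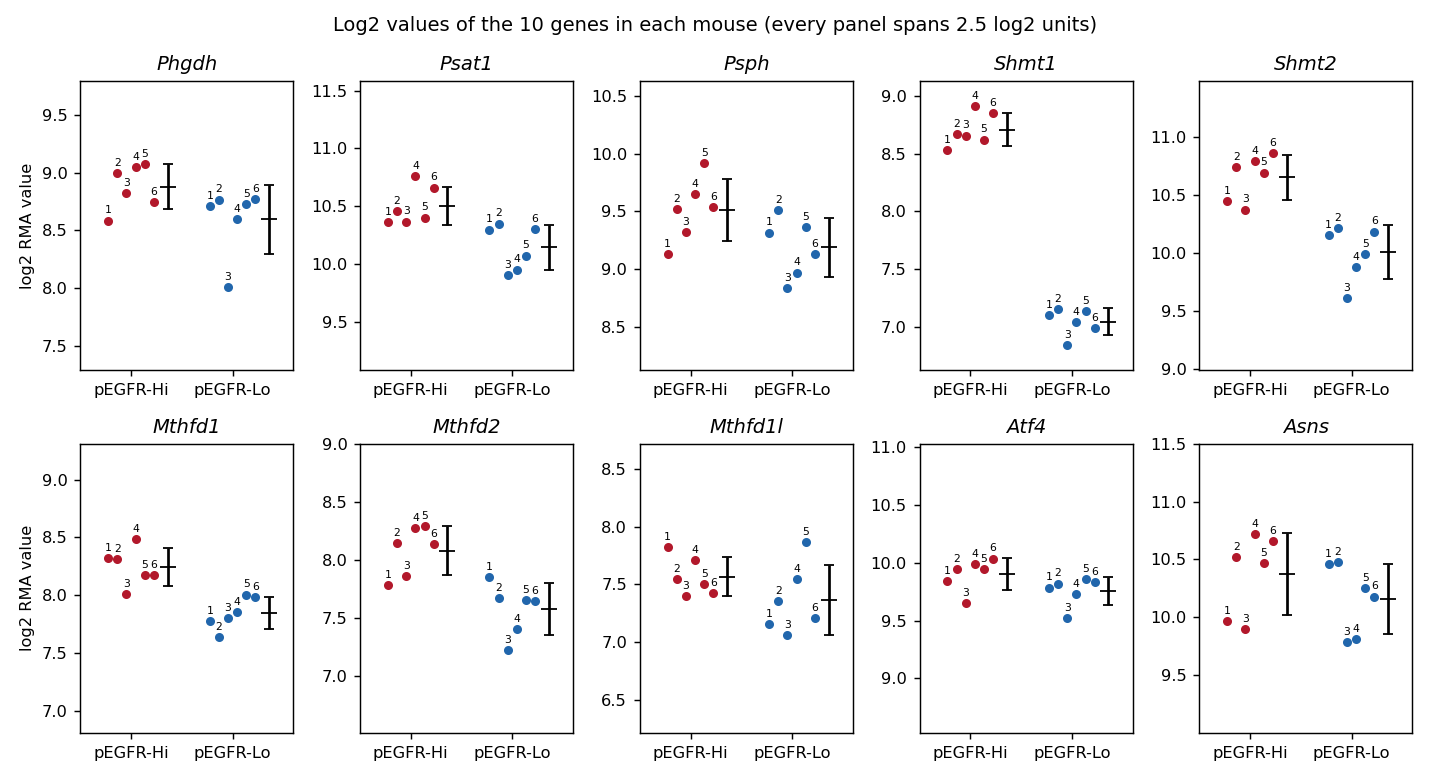
Log2 expression of the 10 genes in each mouse, 1 panel per gene, with pEGFR-Hi on the left and pEGFR-Lo on the right. Points are single mice and bars are the mean with the SD of 6 mice. Shmt1 separates widely, with pEGFR-Hi at 8.53 to 8.91 and pEGFR-Lo at 6.85 to 7.15, while Asns overlaps in part, with pEGFR-Hi at 9.90 to 10.72 and pEGFR-Lo at 9.78 to 10.48.

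Phgdh, phosphoglycerate dehydrogenase, is the first and committing enzyme of serine synthesis. Its log2 values in pEGFR-Hi mice had a lowest of 8.58, a median of 8.91 and a highest of 9.08, and in pEGFR-Lo mice a lowest of 8.01, a median of 8.72 and a highest of 8.77. The groups overlapped, and the lowest value, in pEGFR-Lo mouse 3, lay apart from the other 5 mice of that group. The difference was 0.28 ± 0.13 (SE; 95% interval 0.01 to 0.56), or 1.22-fold, with a limma adjusted p of 0.11. Leaving out that mouse lowered it to 0.17, and leaving out pEGFR-Lo mice 3 and 6 lowered it to 0.18. A second probe set is shared by Phgdh and the pseudogene Gm6756 and cannot be given to either. It read 9.20 ± 0.18 in pEGFR-Hi and 8.76 ± 0.33 in pEGFR-Lo (SD, n = 6 each).

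Psat1, phosphoserine aminotransferase, carries out the second step with glutamate as the nitrogen donor. It ran from 10.37 through a median of 10.43 to 10.76 in pEGFR-Hi, and from 9.91 through a median of 10.19 to 10.35 in pEGFR-Lo. The groups did not overlap, but the lowest pEGFR-Hi and the highest pEGFR-Lo mouse were nearly level. The difference was 0.36 ± 0.10 (SE; 95% interval 0.13 to 0.58), or 1.28-fold, with a limma adjusted p of 0.0128. Psph, phosphoserine phosphatase, releases free serine in the last step. Its values were 9.13 at the lowest, 9.53 at the median and 9.92 at the highest in pEGFR-Hi, and 8.84, 9.22 and 9.51 in pEGFR-Lo. The groups overlapped over much of their range. The difference was 0.32 ± 0.14 (SE; 95% interval 0.03 to 0.61), or 1.25-fold, with a limma adjusted p of 0.079. None of the 3 serine synthesis genes was called, and their intervals lay above 0 but below 1, the 2-fold limit. These intervals are not adjusted over genes, unlike the adjusted p, and that of Phgdh began close to 0, at 0.01.

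Shmt1, the cytosolic serine hydroxymethyltransferase, showed the widest separation of the 10. Its lowest, median and highest values were 8.53, 8.66 and 8.91 in pEGFR-Hi and 6.85, 7.07 and 7.15 in pEGFR-Lo. Every pEGFR-Hi mouse lay above every pEGFR-Lo mouse by more than the range within either group. The group means were 8.71 ± 0.14 in pEGFR-Hi and 7.05 ± 0.12 in pEGFR-Lo (SD, n = 6 each). The difference was 1.66 ± 0.09 (SE), or 3.16-fold with a 95% interval of 2.79 to 3.59, at a limma adjusted p of 3.93e-10. Of all 19938 genes, 218 had a larger positive difference.

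Shmt2 catalyses the same reaction in mitochondria. It read 10.37 at the lowest, 10.72 at the median and 10.86 at the highest in pEGFR-Hi, and 9.61, 10.07 and 10.21 in pEGFR-Lo. The groups did not overlap, although the gap was narrow beside that of Shmt1. The difference was 0.65 ± 0.12 (SE; 95% interval 0.40 to 0.90), or 1.57-fold, with a limma adjusted p of 0.000332.

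Mthfd1, the trifunctional cytosolic enzyme that interconverts the one-carbon forms of folate, ran from 8.01 through a median of 8.24 to 8.48 in pEGFR-Hi and from 7.64 through a median of 7.83 to 8.01 in pEGFR-Lo. The lowest pEGFR-Hi and the highest pEGFR-Lo mouse were level to 2 decimals. The difference was 0.40 ± 0.09 (SE; 95% interval 0.20 to 0.60), or 1.32-fold, with a limma adjusted p of 0.00255. Mthfd2, the mitochondrial dehydrogenase and cyclohydrolase of embryonic and tumor cells, had 7.78 at the lowest, 8.14 at the median and 8.29 at the highest in pEGFR-Hi, and 7.22, 7.65 and 7.85 in pEGFR-Lo. The groups overlapped slightly at their edges. The difference was 0.51 ± 0.12 (SE; 95% interval 0.25 to 0.76), or 1.42-fold, with a limma adjusted p of 0.00284, which became 0.0141 when pEGFR-Lo mice 3 and 6 were left out. Mthfd1l, which releases formate from mitochondria, had 7.40, 7.52 and 7.82 at the lowest, median and highest in pEGFR-Hi and 7.06, 7.28 and 7.87 in pEGFR-Lo. The single highest value of this gene was in a pEGFR-Lo mouse. The difference was 0.20 ± 0.13 (SE; 95% interval -0.07 to 0.47), with a limma adjusted p of 0.259, and it was 0.09 without pEGFR-Lo mice 3 and 6.

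Atf4 had 9.65 at the lowest, 9.94 at the median and 10.04 at the highest in pEGFR-Hi, and 9.52, 9.80 and 9.86 in pEGFR-Lo. The groups overlapped. The difference was 0.14 ± 0.09 (SE; 95% interval -0.04 to 0.32), or 1.10-fold, with a limma adjusted p of 0.229. Asns, which makes asparagine from aspartate and glutamine, had 9.90, 10.50 and 10.72 at the lowest, median and highest in pEGFR-Hi and 9.78, 10.22 and 10.48 in pEGFR-Lo. It had the widest spread among mice of the 10 genes in both groups, with an SD of 0.35 in pEGFR-Hi and 0.30 in pEGFR-Lo. The difference was 0.21 ± 0.17 (SE; 95% interval -0.14 to 0.56), with a limma adjusted p of 0.371. Without pEGFR-Lo mouse 3 the Asns difference was 0.14, and without pEGFR-Lo mice 3 and 6 it was 0.12. For Mthfd1l, Atf4 and Asns the intervals included 0 and left out a 2-fold difference.

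**Figure D2:**
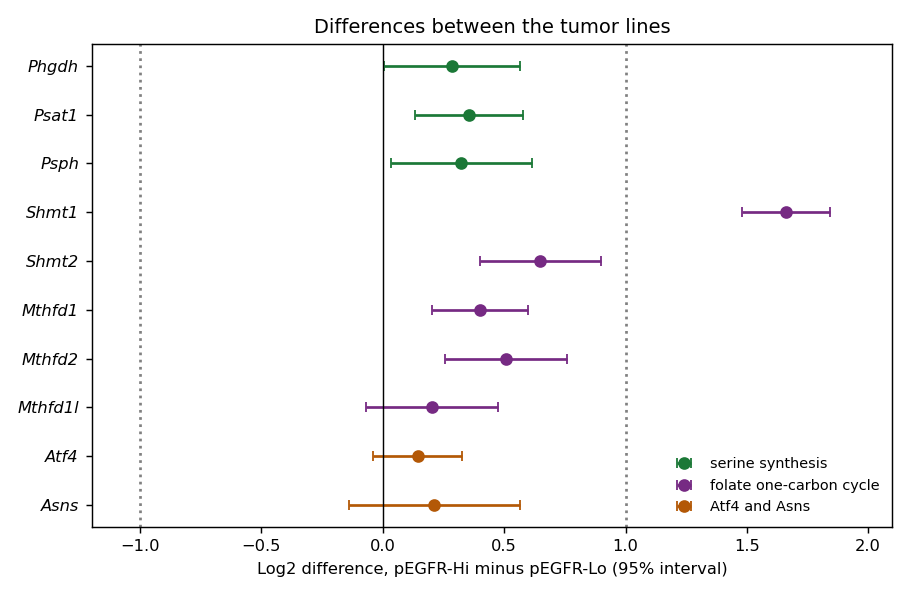
Difference in log2 expression, pEGFR-Hi minus pEGFR-Lo, of the 10 genes (points) with its 95% interval from limma (bars). Shmt1 stands at 1.66, past the 2-fold limit at 1, and the other 9 lie between 0.14 and 0.65.

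Both cell compartments hold paralogous enzymes, and the difference between the paralogues was compared within each mouse. The level of such a log2 ratio has no meaning of its own, since it joins 2 probe sets, but its difference between the groups does. The pairs were chosen after the values of the genes had been seen, and p was from an exact two-sided permutation test over mice, adjusted over 3 pairs, with a smallest possible p of 0.00216. Shmt1 minus Shmt2 was -1.95 ± 0.14 in pEGFR-Hi and -2.96 ± 0.17 in pEGFR-Lo (SD, n = 6 each), a difference of 1.01 (exact permutation p = 0.00216, adjusted p = 0.00649). The cytosolic gene was thus higher by more than the mitochondrial one, in 6 of 6 pEGFR-Hi mice relative to every pEGFR-Lo mouse. Mthfd1 minus Mthfd1l was 0.68 ± 0.11 in pEGFR-Hi and 0.48 ± 0.27 in pEGFR-Lo, a difference of 0.20 (n = 6 each, exact permutation p = 0.126, adjusted p = 0.126). Without pEGFR-Lo mice 3 and 6, a setting added after the values were seen, that difference was 0.34. Its exact permutation p of 0.0286 was not adjusted over the 3 pairs.

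Mthfd2l, a mitochondrial isozyme of Mthfd2 found in adult tissues, moved the other way. It had 5.54 at the lowest, 6.18 at the median and 6.65 at the highest in pEGFR-Hi, and 6.18, 7.21 and 7.53 in pEGFR-Lo. The groups overlapped. The difference was -0.91 ± 0.23 (SE), or 1.88-fold lower in pEGFR-Hi, with a limma adjusted p of 0.00465, under the 2-fold limit and so not called. Its adjusted p was above the limit when pEGFR-Hi mouse 2, 3 or 5 or pEGFR-Lo mouse 1, 2, 3 or 6 was left out, at up to 0.0132, and also with array weights (0.0101) or the replicate number as a block (0.0106). It was called lower when pEGFR-Hi mouse 4 or pEGFR-Lo mouse 4 was left out, at -1.09 without the pEGFR-Lo one. The adjusted p became 0.0329 without pEGFR-Lo mice 3 and 6. Mthfd2 minus Mthfd2l was 1.91 ± 0.56 in pEGFR-Hi and 0.49 ± 0.49 in pEGFR-Lo, a difference of 1.41 (n = 6 each, exact permutation p = 0.00433, adjusted p = 0.00649). The lowest pEGFR-Hi mouse, at 1.14, lay below the highest pEGFR-Lo mouse, at 1.22.

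**Figure D3:**
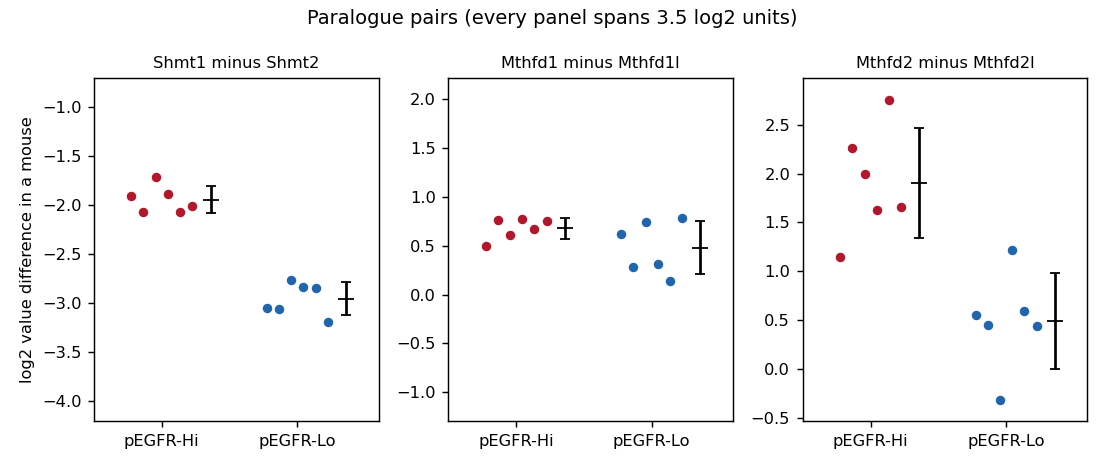
Difference in log2 value between paralogues in the same mouse, with pEGFR-Hi on the left and pEGFR-Lo on the right of each panel. Points are mice and bars are the mean with the SD of 6 mice. Shmt1 minus Shmt2 separates the groups, at means of -1.95 in pEGFR-Hi and -2.96 in pEGFR-Lo. Mthfd1 minus Mthfd1l overlaps between them.

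Among mice of one group, several of the genes were low in the same animals. In pEGFR-Hi, mice 1 and 3 each held the lowest value of 5 of the 10 genes, against 19.4% and 17.8% of the genes above background. In pEGFR-Lo, mouse 3 held the lowest value of 9 of the 10, against 22.8% of the genes above background, and Mthfd1 was the exception. The median deviation of the 10 genes from the group mean was -0.19 in pEGFR-Hi mouse 1, -0.21 in pEGFR-Hi mouse 3 and -0.33 in pEGFR-Lo mouse 3. It was highest in pEGFR-Hi mouse 4, at 0.18. In pEGFR-Lo mouse 4 it was -0.08, with 8 of the 10 genes below the group mean, as in pEGFR-Hi mouse 1, but with none of them the lowest of the group. The median over all genes above background was -0.01 in pEGFR-Lo mouse 3 and nearer to 0 in pEGFR-Hi mice 1 and 3. This pattern was noticed in the values and was not tested.

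The same mice were low in other genes that Atf4 is known to drive, while the median deviation of proliferation markers was small. Over 23 other ATF4 response genes, the median deviation was -0.33 in pEGFR-Hi mouse 3, -0.20 in pEGFR-Hi mouse 1 and -0.26 in pEGFR-Lo mouse 3. The lowest value of the group was in pEGFR-Hi mouse 3 for 15 of these 23 genes, in pEGFR-Hi mouse 1 for 5 and in pEGFR-Lo mouse 3 for 12. Of all genes above background, 17.8% were lowest in pEGFR-Hi mouse 3, 19.4% in pEGFR-Hi mouse 1 and 22.8% in pEGFR-Lo mouse 3. Cytosolic aminoacyl-tRNA synthetases charge tRNAs with amino acids. Over 18 of them, the lowest value was in pEGFR-Hi mouse 1 for 10 genes, in pEGFR-Hi mouse 3 for 6 and in pEGFR-Lo mouse 3 for 10. Over 9 proliferation markers the median deviations were 0.00 in pEGFR-Hi mouse 1, -0.04 in pEGFR-Hi mouse 3 and -0.05 in pEGFR-Lo mouse 3. Single markers lay apart in both directions in pEGFR-Lo mouse 3. There Aurkb was the lowest of its group (7.42, group mean 7.96) and Mki67 the highest (8.37, group mean 7.86). Both were singled out here after their values were seen. Cell type markers also differed in pEGFR-Lo mouse 3, with a median deviation of 0.25 for 9 astrocyte markers and -0.22 for 8 microglia and macrophage markers. Both medians lay between -0.04 and -0.01 in pEGFR-Hi mice 1 and 3, but other lists deviated there. The median was 0.15 for 6 oligodendrocyte progenitor markers in pEGFR-Hi mouse 1 and -0.11 for 5 myelin genes in pEGFR-Hi mouse 3. The part of cell type markers in the pattern was not tested. Whether the handling of these samples played a part was not tested.

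**Figure D4:**
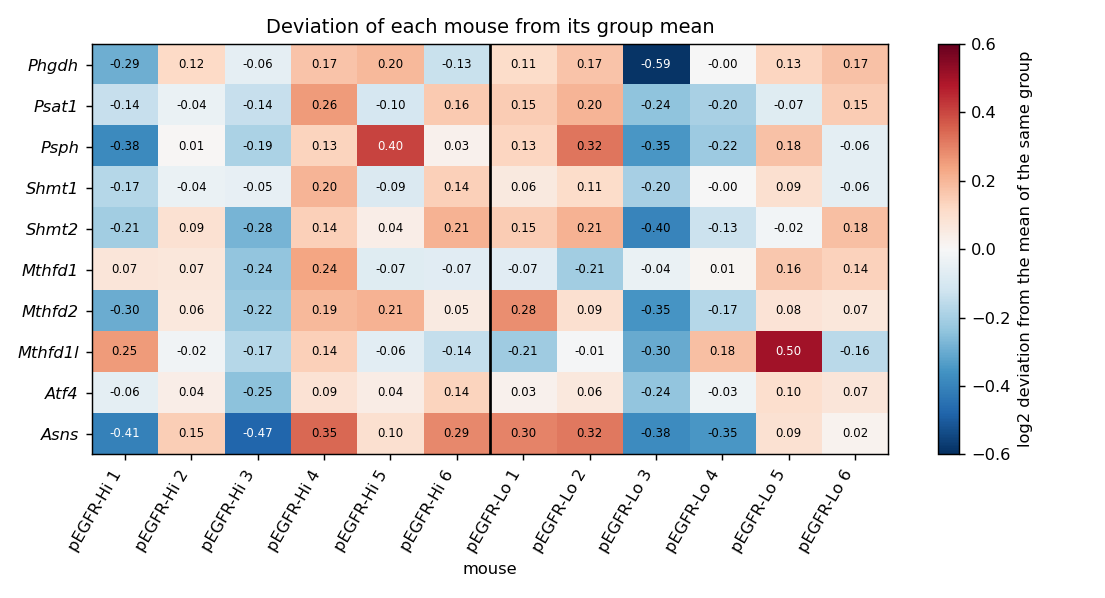
Deviation of each mouse from the mean of its own group, in log2 units, for the 10 genes (rows), with the pEGFR-Hi mice on the left and the pEGFR-Lo mice on the right. Blue cells are below the group mean. The columns of pEGFR-Hi mice 1 and 3 and of pEGFR-Lo mouse 3 are blue for most genes, down to -0.59 for Phgdh, and that of pEGFR-Lo mouse 4 is blue for 8 of 10, mostly in paler shades.

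Atf4 was set against each of the other 9 genes within each group of 6 mice. This gave 18 relations, whose exact permutation p-values were adjusted together. All 18 Pearson correlations were above 0, from 0.139 to 0.942 in pEGFR-Hi and from 0.237 to 0.978 in pEGFR-Lo. None had an adjusted p under 0.05. The closest in pEGFR-Hi were Shmt2, with r = 0.942 and rho = 0.943, and Asns, with r = 0.910 and rho = 0.886, each at an exact permutation adjusted p of 0.05 for r and 0.263 for rho. Phgdh in pEGFR-Lo had r = 0.978 and rho = 0.829, at exact permutation adjusted p of 0.075 and 0.263. Without the 2 mice farthest from the median Atf4 value, mice 1 and 3 in pEGFR-Hi and mice 3 and 4 in pEGFR-Lo, 8 of the 18 were above 0. Shmt2 then had r = 0.949 (exact permutation p = 0.0833) and Asns r = 0.744 (exact permutation p = 0.333) in pEGFR-Hi. Phgdh had r = 0.306 in pEGFR-Lo (exact permutation p = 0.708). With 4 mice such p-values are coarse. The 10 others were negative, so those relations were not seen apart from the mice left out, and the 4 that remain span a narrower range of Atf4.

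Related genes were taken from 10 lists of 135 genes, of which 121 were measured. Of these, 6 were called higher in pEGFR-Hi (4.96%) and 6 lower (4.96%), against 3.99% and 5.06% of all genes. Each list is described by its counts and its median difference, without a test of the list.

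Around the folate cycle, 1 of the enzymes that spend the carbon was called, and none of the other listed folate enzymes or carriers was. Of 8 other folate enzymes measured, 1 was called higher, Tyms, thymidylate synthase, which methylates dUMP with the carbon that Shmt loads onto folate. Its lowest, median and highest values were 9.75, 9.89 and 9.97 in pEGFR-Hi and 7.78, 8.10 and 8.20 in pEGFR-Lo, without overlap. The difference was 1.83 ± 0.08 (SE), or 3.56-fold, with a limma adjusted p of 1.06e-10. The median of the list was 0.01. None of 5 folate carriers was called, with 1 higher and 1 lower at an unadjusted p under 0.05 and 0 called by SAM. At the adjusted p limit without the fold limit 0 were higher and 1 was lower, against 14.7% and 12.9% of all genes. That carrier, Slc46a1, singled out after its values were seen, was at -0.57 ± 0.09 (SE; limma adjusted p = 9.85e-05), without overlap.

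De novo purine synthesis uses formyl groups from folate at 2 steps. Of its 12 genes measured, 11 had a positive difference, against 53.0% of genes above background, with a median of 0.41. At the adjusted p limit without the fold limit 7 were higher, against 14.7% of all genes and 20.9% of those above background, and 1 was lower, and 1 was called. That gene was Gart, whose trifunctional product uses such a formyl group. Gart read 8.20, 8.40 and 8.53 at the lowest, median and highest in pEGFR-Hi and 7.26, 7.36 and 7.45 in pEGFR-Lo, a 2.04-fold difference (limma adjusted p = 2.29e-08). It came just under the 2-fold limit without pEGFR-Hi mouse 4, with a limma adjusted p of 1.2e-07. Ppat, which commits to the pathway and was singled out after its values were seen, was 1.66-fold higher (limma adjusted p = 9.84e-06).

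Of the genes that take serine, glycine and the methyl group elsewhere, 1 was called higher and 4 were called lower. The glycine cleavage system, which feeds carbon to mitochondrial folate, had 0 of 4 genes called, by SAM also 0, and 0 higher and 2 lower at an unadjusted p under 0.05. Its aminomethyltransferase Amt, singled out after its values were seen, was at -0.85 ± 0.15 (SE; limma adjusted p = 0.000282). Of 11 genes of the methionine cycle and transsulfuration, 1 was called lower, Ahcyl2, a relative of the hydrolase of S-adenosylhomocysteine. It read 6.06, 6.31 and 6.57 at the lowest, median and highest in pEGFR-Hi and 7.86, 7.99 and 8.55 in pEGFR-Lo, 3.49-fold lower in pEGFR-Hi (limma adjusted p = 5.1e-09).

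Of 19 genes of serine and glycine use and transport, 1 was called higher and 3 lower, against 3.99% and 5.06% of all genes. The median of the list was -0.13. At the adjusted p limit without the fold limit 2 were higher, against 14.7% of all genes, and 7 lower, against 12.9%. The called higher gene was Slc1a5, a transporter of glutamine and small neutral amino acids including serine. It read 8.89, 9.26 and 9.54 at the lowest, median and highest in pEGFR-Hi and 6.97, 7.44 and 7.76 in pEGFR-Lo, a 3.55-fold difference (limma adjusted p = 3.56e-08). Gatm, which uses glycine to begin creatine synthesis, averaged 4.03 ± 0.49 in pEGFR-Hi, below background, and 7.39 ± 0.69 in pEGFR-Lo (SD, n = 6 each). It was lower in pEGFR-Hi (limma adjusted p = 1.19e-07), by 9.77-fold from the pEGFR-Lo mean to the background level. That bound leaves out the spread among mice, and the log2 difference of Gatm had a 95% interval of -3.97 to -2.75. Slc38a1, a sodium-coupled neutral amino acid transporter, was 2.51-fold lower (limma adjusted p = 9.42e-09), and Serinc5, a membrane protein of the serine incorporator family, 2.38-fold lower (limma adjusted p = 9.32e-09). The glycine transporter Slc6a9, singled out after its values were seen, lay at -0.98, just under 2-fold, and was called lower when pEGFR-Hi mouse 2 or 6 or pEGFR-Lo mouse 1, 3 or 6 was left out, at -1.05 without pEGFR-Hi mouse 6.

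Genes of the wider Atf4 response moved in both directions. Of 23 measured, 2 were called higher and 1 lower, and the median was 0.29. At the adjusted p limit without the fold limit 7 were higher, against 14.7% of all genes and 20.9% of those above background. At that limit 1 was lower, against 12.9% of all genes. Gpt2, the mitochondrial alanine aminotransferase, had 9.19, 9.36 and 9.49 at the lowest, median and highest in pEGFR-Hi and 7.81, 8.06 and 8.36 in pEGFR-Lo, a 2.45-fold difference (limma adjusted p = 2.33e-08). Atf3, a stress-induced transcription factor, had 8.66, 9.46 and 9.97 in pEGFR-Hi and 7.85, 8.14 and 9.23 in pEGFR-Lo. The groups overlapped, and the 2.15-fold difference (limma adjusted p = 0.00228) was no longer called without pEGFR-Hi mouse 2, at 0.99 on the log2 scale, or without pEGFR-Lo mice 3 and 6, at 0.94 with an adjusted p of 0.0195.

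Slc38a2, an amino acid transporter induced by amino acid shortage, was lower in pEGFR-Hi. It had 10.10, 10.28 and 10.48 at the lowest, median and highest in pEGFR-Hi and 11.39, 11.92 and 12.13 in pEGFR-Lo, 3.0-fold lower (limma adjusted p = 1.9e-08). Trib3 and Chac1, stress-induced genes singled out after their values were seen, had differences of 0.91 and 0.94 and missed the fold limit. Chac1 passed it when pEGFR-Hi mouse 1 or 3 or pEGFR-Lo mouse 2 was left out, at up to 1.05. Ddit4, a stress-induced inhibitor of mTORC1, was also singled out after its values were seen. With all mice it was at -0.81 ± 0.26 (SE; limma adjusted p = 0.0236), with overlapping groups, and missed both limits. It was called lower only when pEGFR-Hi mouse 5 was left out. Of 18 aminoacyl-tRNA synthetases, all above background, 16 had a positive difference, against 53.0% of genes above background. At the adjusted p limit without the fold limit 4 were higher, against 20.9% of genes above background. By limma or SAM 0 were called, with 7 higher and 1 lower at an unadjusted p under 0.05.

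Upstream of Atf4, 15 genes of the eIF2 kinases, phosphatases and exchange factor were measured, and 1 was called higher. This was Eif2ak2, the kinase activated by double-stranded RNA and itself induced by interferon. It had 7.68, 7.90 and 8.37 at the lowest, median and highest in pEGFR-Hi and 5.70, 6.67 and 7.10 in pEGFR-Lo, a 2.76-fold difference (limma adjusted p = 6.25e-05). The lowest values were 5.87 and 5.70 in pEGFR-Lo mice 3 and 6, and without these mice the difference was 1.11 on the log2 scale, against 1.47 with all mice. Impact, which restrains the amino acid-sensing kinase Gcn2 and was singled out after its values were seen, was at -0.77 (limma adjusted p = 0.000149). Of 6 other regulators of the serine pathway 1 was called, Mycn, 2.38-fold lower in pEGFR-Hi, with 4.57 ± 0.23 in pEGFR-Hi and 5.82 ± 0.32 in pEGFR-Lo (SD, n = 6 each; limma adjusted p = 3.14e-06). Nfe2l2, the oxidative stress regulator Nrf2, singled out after its values were seen, was at 0.88, under the fold limit (limma adjusted p = 5.33e-05).

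**Figure D5:**
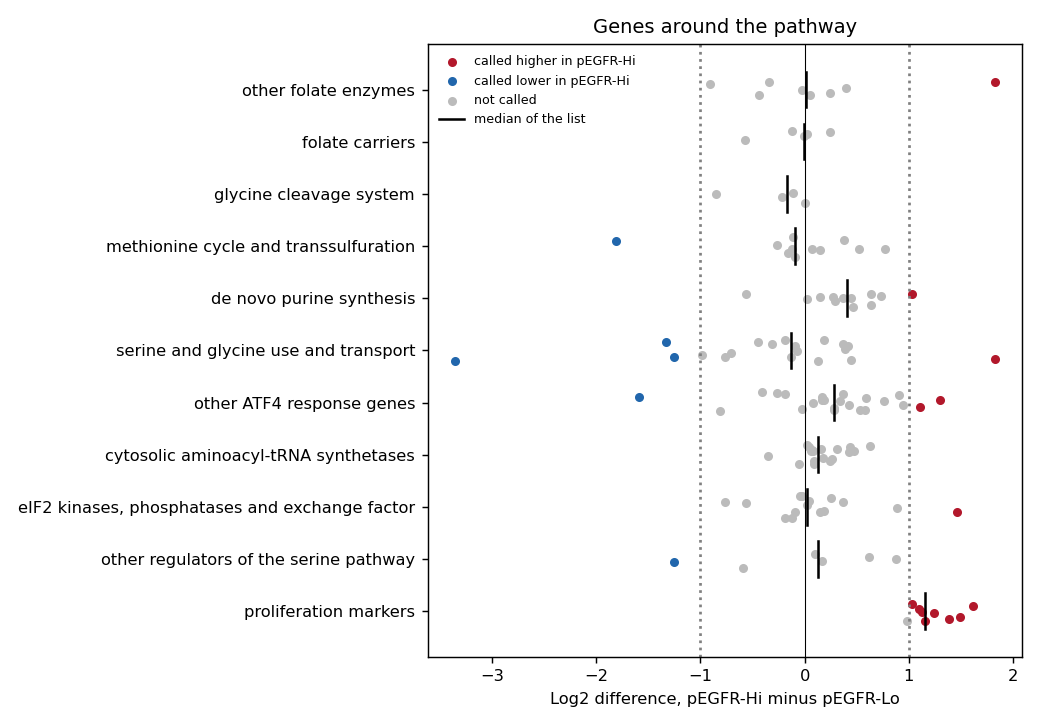
Differences in log2 expression, pEGFR-Hi minus pEGFR-Lo, of the genes of each related list (points), with the list's median. De novo purine synthesis has a median of 0.41, proliferation markers have one of 1.15, other ATF4 response genes one of 0.29, and the other lists medians from -0.17 to 0.13.

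Proliferation and cell type markers differed between the same groups. Of 9 proliferation markers 8 were called higher, against 3.99% of all genes, with a median of 1.15. The mean log2 value of the list was 9.50 to 9.61 in pEGFR-Hi and 8.18 to 8.51 in pEGFR-Lo mice. Top2a, Aurkb, Mcm5 and Pcna, genes of chromosome separation and DNA replication, were 2.80-fold, 3.07-fold, 2.36-fold and 2.14-fold higher. Their part in the differences of Shmt1, Shmt2, Tyms and Gart was not tested. Of 9 astrocyte markers 1 was called higher and 4 lower, against 3.99% and 5.06% of all genes. Their list mean was 6.20 to 6.54 in pEGFR-Hi and 7.42 to 7.81 in pEGFR-Lo. Of 6 oligodendrocyte progenitor markers 1 was called lower. At the adjusted p limit without the fold limit 4 were lower, against 12.9% of all genes, and 6 were lower at an unadjusted p under 0.05. Their median difference was -0.69, with a list mean of 5.53 to 5.93 in pEGFR-Hi and 7.02 to 7.45 in pEGFR-Lo. The 6 neural progenitor markers were all above background, with 1 called lower and a list mean of 9.42 to 9.70 in pEGFR-Hi and 9.64 to 9.86 in pEGFR-Lo. Markers of other cells of the brain had list means near background, of 3.56 to 3.70 in pEGFR-Hi and 3.67 to 3.95 in pEGFR-Lo for 8 neuron genes, and 3.91 to 4.17 in pEGFR-Hi and 4.14 to 4.57 in pEGFR-Lo for 8 microglia and macrophage genes. Of the neuron genes 0 were called by limma or SAM, with 0 higher and 3 lower at an unadjusted p under 0.05, and of the microglia and macrophage genes 1 was called lower. That gene was P2ry12, at 4.69 ± 0.46 in pEGFR-Hi and 6.43 ± 0.41 in pEGFR-Lo (SD, n = 6 each), 3.36-fold lower (limma adjusted p = 6.11e-06), while Csf1r and Aif1 were below background in both groups. Of 7 endothelial and pericyte genes 1 was called lower, the pericyte gene Rgs5 (limma adjusted p = 4.25e-06). It averaged 3.97 ± 0.30 in pEGFR-Hi, below background, and 7.59 ± 1.24 in pEGFR-Lo (SD, n = 6 each). The pEGFR-Lo mean of Rgs5 lay 11.2-fold above the background level, a bound that leaves out the spread among mice. Its values in pEGFR-Lo mice ran from 5.72 to 8.80, and its log2 difference had a 95% interval of -4.52 to -2.71. Pecam1 and Cdh5 were below background in both groups. Other markers above background in both groups included Cx3cr1, Tmem119, Gad1, Cldn11, Mbp, Cldn5 and Flt1, with means between 4.21 and 5.63. Of 5 myelin and 3 blood cell genes 0 were called by limma or SAM, with 1 myelin gene lower at an unadjusted p under 0.05. The part of these markers in the results was not tested.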

How the data were processed

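Total RNA of sorted tumor cells of 6 pEGFR-Hi and 6 pEGFR-Lo mice was measured, with groups and replicate numbers taken from the sample labels. The deposited values are on the log2 scale and were made by the authors with RMA in Affymetrix Expression Console (background correction, quantile normalization and a summary per probe set), with no version given in the sources used here. Of 35556 probe sets, 21789 had 1 gene symbol, 1621 several and 12146 none in the annotation used, and those with 1 were named, 21698 of them through Entrez IDs of RefSeq. Where several probe sets stood for a gene (999 genes), the brightest by its mean over 12 arrays was used. The table had 0 missing values and 0 pairs of identical arrays.

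The deposited log2 values of 19938 genes were fitted with limma 3.58.1 in R 4.3.3 and called where the Benjamini-Hochberg adjusted p was below 0.01 and the difference 2-fold or more. The study used SAM with the same fold limit, and SAM at a false discovery rate of 1% with 100 permutations was an alternative. Permutation tests used scipy 1.17.1. On simulated arrays of 19938 genes for pEGFR-Hi minus pEGFR-Lo, limma and SAM each called 98 of 100 genes changed by 1.5 and 99 of 100 changed by 2 on the log2 scale, and 0 of 19738 unchanged genes. The number of arrays limits the precision.

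Named were the 10 genes and, from each related list, up to 4 called genes, by smallest adjusted p, in the direction with more calls and up to 2 in the opposite one. Others are marked where named. The genes and lists were chosen with earlier results of these data known. Other alternatives were a second quantile normalization, centring on array medians, leaving out dim genes, array weights, a replicate block, robust eBayes with a trend, averaging a gene's probe sets, a limit of adjusted p 0.05 alone, and leaving out each array. Leaving out pEGFR-Lo replicates 3 and 6 together was tried because earlier results had set these arrays apart in interferon genes, and was added for the paralogue pairs, as was leaving out each array, after their values were seen.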

Additional observations from a re-analysis of the deposited data

Results flagged for a closer look

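Phgdh in pEGFR-Lo mouse 3 read 8.01 on the log2 scale, apart from the other 5 mice of its group, of which the nearest was at 8.59. The gap was 0.77 of the range of the group, above the critical value of Dixon's test for 6 samples. The 10 genes in 2 groups gave 20 such comparisons, and chance flags about 1 in 20.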

How the results depend on the processing

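Over 22 alternatives none of the 10 genes changed its direction, and none changed its call under those that kept the adjusted p and 2-fold limits. The Shmt1 difference ranged from 1.62 to 1.70 on the log2 scale when single mice were left out and from 1.60 to 1.68 under the other alternatives, with limma adjusted p from 4.34e-11 to 2.22e-07. Leaving out single mice gave 1 to 1 of the 10 genes called higher and 0 to 0 lower, 5 to 7 related genes higher and 6 to 7 lower, and 774 to 846 of all genes higher and 991 to 1031 lower. At an adjusted p of 0.05 and without a fold limit, 5 of the 10 genes were higher, as were 38 related genes and 3871 of all genes, while 21 related genes and 3314 of all genes were lower. Replicate numbers did not pair the mice, with correlations of same-numbered mice from -0.137 to 0.0974, and 1 of 6 matched best with its own number. With the replicate number as a block, 1 of the 10 genes was called higher and 0 lower, with 6 related genes in each direction and 801 genes higher and 1008 lower in all. Without the 2 mice farthest in Atf4, correlations with Atf4 turned negative in pEGFR-Hi for Phgdh (-0.847), Psph (-0.437), Mthfd1 (-0.108), Mthfd2 (-0.386) and Mthfd1l (-0.271), and in pEGFR-Lo for Psat1 (-0.700), Psph (-0.0074), Shmt2 (-0.628), Mthfd2 (-0.861) and Asns (-0.681). That setting keeps 4 mice and narrows the range of Atf4, and the cause was not tested further. Genes near background have only a bound on their fold, taken from the mean of the brighter group without the spread among mice.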
